A study of Mus musculus with 8 samples.

Results

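The replication-dependent histone genes, which lie in clusters and supply the bulk of histone protein during DNA synthesis, were measured in mouse haematopoietic stem cells of 4 genotypes. Members were the gene symbols that begin with Hist1h, Hist2h, Hist3h or Hist4h and that reached 1 TPM in at least 2 of the 8 libraries. TPM (transcripts per 1000000) is a gene's abundance divided by transcript length and scaled to the same total in each library. Of 70 symbols of this pattern 67 were members, among 33641 symbols in all and 16064 that passed the same level filter and were tested. Members were thus chosen by their measured TPM level alone, which is given here as a description, and no member reached 1 TPM in the libraries of 1 genotype alone. Hist1h4b, Hist1h2ba and Hist1h2al did not reach it in any Scribble null library, and Hist1h4b and Hist1h2ba did not reach it in any Yap1 Taz null library either, so that other groups admitted them.

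RNA was from stem cells sorted from bone marrow of C57BL/6 mice that carried Mx1-Cre, a recombinase under the interferon-responsive Mx1 promoter. That promoter is active in many cell types, so recombination is not limited to stem cells. The groups were wild type, Scribble-/-, Taz-/-;Yap1-/- (here Yap1 Taz null) and Scribble-/-;Taz-/-;Yap1-/- (here triple null), with 2 libraries each. The labels give Mx1-Cre for the wild-type mice too, and the induction they describe for all samples was polyI:C, which mimics viral RNA and so provokes interferon, given 6 times at 10 mg/kg. Cells were taken 1 week after induction, and the labels give neither age nor the number of animals behind a library.

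Scribble is a scaffold of the cell polarity machinery, and Yap1 and TAZ are co-activators held back by the Hippo kinases. Scrib stood at 8.19 and 9.29 TPM in wild type, against 6.26 and 7.63 TPM in libraries carrying the Scribble null label, a difference that was not called (limma, adjusted p = 0.669), and at 14.5 and 7.54 TPM in the triple null. Yap1 and Wwtr1, which encodes TAZ, were at 0.730 to 2.15 TPM in wild type and were not called lower in any library group whose label names them, Yap1 standing at 2.13 and 6.63 TPM in Yap1 Taz null. The genes named in the labels are therefore no check of them, and each direction below is between libraries as labelled. Between 14024 and 14970 symbols reached 1 TPM per library, and since TPM does not keep depth, none can be given behind these values, so that depth is unknown. The correlation of log2 levels was 0.953 to 0.965 between libraries of a genotype, and Scribble null 2 correlated slightly better with another genotype (0.958) than with Scribble null 1 (0.953). All 12 stem cell markers listed were measured, at levels that ran from 9.498 to 23.2 TPM for Hoxb5 to 218 TPM or more for Hlf. Some markers of other blood cells were also measured, such as Lyz2 of myeloid cells at 176 to 292 TPM and Nkg7 of killer cells at 56.2 to 152 TPM, while Cd3e of T cells and Csf1r of macrophages stayed below 1 TPM in every library. Whether the libraries of a group came from separate animals is not stated, so p-values reflect only how far these libraries spread, and that spread may be technical.

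Histones H2A, H2B, H3 and H4 form the core around which DNA is wound, and the linker histone H1 binds where DNA enters and leaves that core. The clustered genes are transcribed mainly in S phase, when newly copied DNA has to be packaged, and their mRNAs are degraded when replication ends. They mostly lack introns, and in place of a poly(A) tail their mRNAs end in a short stem-loop that is bound by the protein Slbp. Most haematopoietic stem cells in adult marrow rest outside the cell cycle.

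Of the 67 members 65 are coding genes, namely 5 of H1, 17 of H2A, 18 of H2B, 12 of H3 and 13 of H4. The others are the pseudogenes Hist1h2al and Hist3h2bb-ps. The Hist1 cluster on chromosome 13 holds 53 members, Hist2 on chromosome 3 holds 10, Hist3 on chromosome 11 holds 3 and Hist4 on chromosome 6 holds 1 (GRCm38, the build also called mm10). In the annotation the main Hist1 members fall into a stretch of 23 (positions 21715763 to 22043676) and a stretch of 29 (23531050 to 23934156), with Hist1h2al far away at 51202727 to 51203065.

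The stem-loop is the element that sets these mRNAs apart, and its letters are shown because they differ by class. A sequence of the stem-loop consensus, 16 bases long, was found in the annotated transcripts of 43 members and in 80 of 55341 gene names in the annotation (0.145%). Another 10 members are annotated as the coding part alone and cannot show it. The remaining 14 also lack it, among them both pseudogenes and models that end shortly after the coding part, such as that of Hist1h2af. Some of the 14 have long models, such as Hist1h2bc with 1156 bases and Hist2h2be with 2620 bases. The capitals mark the stem-loop, shown in the RNA sense with flanking bases from the GENCODE transcripts.
Hist1h1e: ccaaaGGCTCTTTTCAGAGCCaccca
Hist1h2ag: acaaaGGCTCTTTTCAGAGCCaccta
Hist1h2bk: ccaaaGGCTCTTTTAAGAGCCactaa
Hist1h3c: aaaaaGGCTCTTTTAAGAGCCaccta
Hist1h4d: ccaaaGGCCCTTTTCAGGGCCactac
Hist1h4c: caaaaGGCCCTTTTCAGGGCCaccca
Hist1h4b: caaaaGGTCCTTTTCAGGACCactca
These lie on chromosome 13 of GRCm38, for example at 23621777 to 23621802 on the minus strand for Hist1h1e and at 23581945 to 23581970 on the plus strand for Hist1h4d. Among members with the element, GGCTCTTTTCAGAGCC was held by 3 H1, 10 H2A, 8 H2B and 5 H3 genes and by no H4 gene. The 11 H4 genes with the element instead held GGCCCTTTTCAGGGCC in 7, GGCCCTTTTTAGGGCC in 2 and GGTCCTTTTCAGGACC in 2. Only 12 members had an AATAAA poly(A) signal after the stem-loop within their annotated transcript.

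Promoter windows around the transcription start from RefSeq (GRCm38.p6) were matched for 60 members. They were searched on both strands for ATTTGCAT, the octamer bound by Oct factors, for CCAAT, and for TATAAA. The octamer was in 7 of 16 H2B and 6 of 17 H2A windows and in none of the H1, H3 and H4 windows, against 1.7% of 32851 windows of all genes. CCAAT was in 51 of the 60 windows, against 37.4% of all, but in only 3 of 12 H4 windows. TATAAA was in 34 of the 60, against 13.6% of all. Windows of abundant members of each kind are given in the direction of transcription, with matches on either strand in capitals.
Hist1h2bl: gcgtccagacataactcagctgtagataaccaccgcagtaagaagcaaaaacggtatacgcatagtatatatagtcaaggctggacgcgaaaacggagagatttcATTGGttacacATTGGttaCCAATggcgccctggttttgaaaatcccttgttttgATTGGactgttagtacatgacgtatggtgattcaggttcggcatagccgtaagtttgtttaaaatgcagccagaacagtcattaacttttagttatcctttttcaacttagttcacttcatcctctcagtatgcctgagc
Hist1h2bk: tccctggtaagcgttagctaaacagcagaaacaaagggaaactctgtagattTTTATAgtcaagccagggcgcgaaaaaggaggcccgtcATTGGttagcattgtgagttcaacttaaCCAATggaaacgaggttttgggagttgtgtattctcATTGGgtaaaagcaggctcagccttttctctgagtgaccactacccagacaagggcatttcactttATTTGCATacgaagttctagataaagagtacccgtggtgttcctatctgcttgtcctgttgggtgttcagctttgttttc
Hist1h4d: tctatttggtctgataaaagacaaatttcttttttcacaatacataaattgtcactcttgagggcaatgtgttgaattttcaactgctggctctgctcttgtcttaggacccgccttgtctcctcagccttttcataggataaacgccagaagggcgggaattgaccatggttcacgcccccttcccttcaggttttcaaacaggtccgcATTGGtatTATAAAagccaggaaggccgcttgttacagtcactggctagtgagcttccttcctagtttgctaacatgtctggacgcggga
The Hist1h2bl window (chr13:21716134-21716433, minus strand) overlaps the Hist1h2ai window, as these genes start 279 bases apart and point away from each other. It holds CCAAT several times and neither of the other motifs. Hist1h2bk (chr13:22035571-22035870, plus strand) holds all 3 motifs, and Hist1h4d (chr13:23581318-23581617, plus strand) holds CCAAT on the other strand just before TATAAA. A match is a description of letters and not of binding.

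The members together made up 0.698 to 0.769% of all transcripts in wild type, at 7687 and 6978 TPM. Few genes carried most of it. Hist1h4d gave 27.4% of the summed member level averaged over the 8 libraries and 91.6% of the H4 level, and the H2B gene Hist1h2bl gave a further 18.4%. In Scribble null 1 the order of these genes was the reverse, with Hist1h4d at 466 TPM and Hist1h2bl at 592 TPM. With the H2A gene Hist1h2ak and the H2B gene Hist1h2bm the share came to 60.4%.

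**Figure D1:**
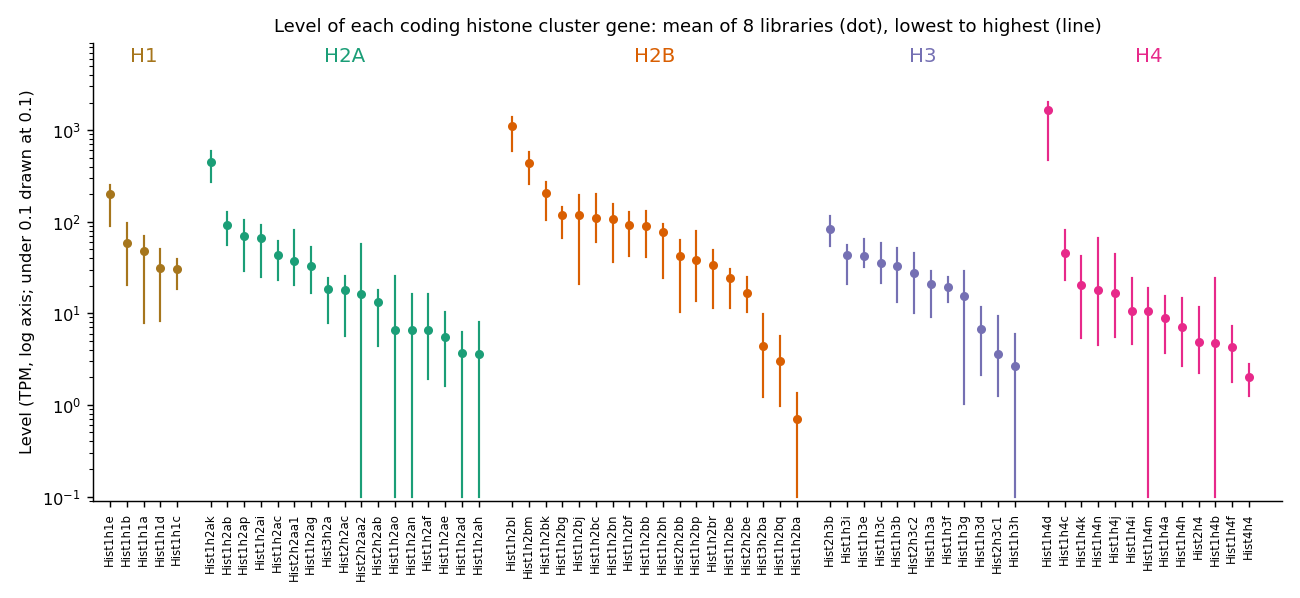
Level of the 65 coding members on a log axis in TPM, ordered within each class by mean, with dots for the mean of 8 libraries and lines from the lowest to the highest library. Hist1h4d (mean 1664 TPM) and Hist1h2bl (1116 TPM) stand above the rest, and several low members run down to values drawn at the lower edge.

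TPM divides by the length of the model, and Hist1h2bl is annotated as 381 bases of coding sequence while the Hist1h4d model runs 770 bases past its stem-loop. The order of levels between genes therefore rests in part on the gene models. At the bottom, Hist1h2ba, which is known as a testis form of H2B, had its second highest library at 1.10 TPM, just inside the rule. Hist4h4 came next by that value, at 2.73 TPM, but reached 1 TPM in all 8 libraries. Just outside lay Hist1h1t, a testis H1, at 0.942 TPM and Hist1h2aj at 0.935 TPM, and Hist1h2aa was the other symbol left out.

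In the libraries labelled Scribble null the histone genes stood lower than in wild type in every class, and their summed level was 0.498 times the wild-type one. The summed level was 7687 and 6978 TPM in wild type, against 2959 and 4337 TPM in Scribble null, 2.01-fold lower between means of 7332 ± 501.6 and 3648 ± 974 TPM (SD, n = 2). It was 7222 and 6353 TPM in Yap1 Taz null and 6239 and 6724 TPM in the triple null. Both Scribble null libraries lay below all 6 others, and the Yap1 Taz null pair overlapped wild type in TPM as deposited. In bulk RNA, fewer cells that make these mRNAs and less of them per cell cannot be told apart. Within the Scribble null pair the second library was 1.47 times the first, so the size of the difference from wild type depended on the library, at -0.76 on the log2 scale without Scribble null 1 and -1.31 without Scribble null 2.

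Single members were tested with limma on log2(TPM + 1) over all 16064 genes, and a gene was called at an adjusted p below 0.05. In Scribble null against wild type 9 of 67 members were called lower and none higher, beside 1.30% of all genes called either way, 0.710% called lower and 0.591% called higher. Among the 9, Hist1h4b and Hist1h2al reached 1 TPM in no Scribble null library, so only other groups admitted them. The median member difference was -0.98, where the median of all genes tested was 0.14. A difference of -1 or less was found in 31 members and in 2.81% of all genes. Both Scribble null libraries lay below both wild-type libraries for 45 members, against 15.7% of all genes, and above both for 6, against 33.2%. The count of calls rested on single libraries. It was 0 without wild type 1, 4 without wild type 2, 1 without Scribble null 1, 5 without either triple null library and 18 without Scribble null 2.

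**Figure D2:**
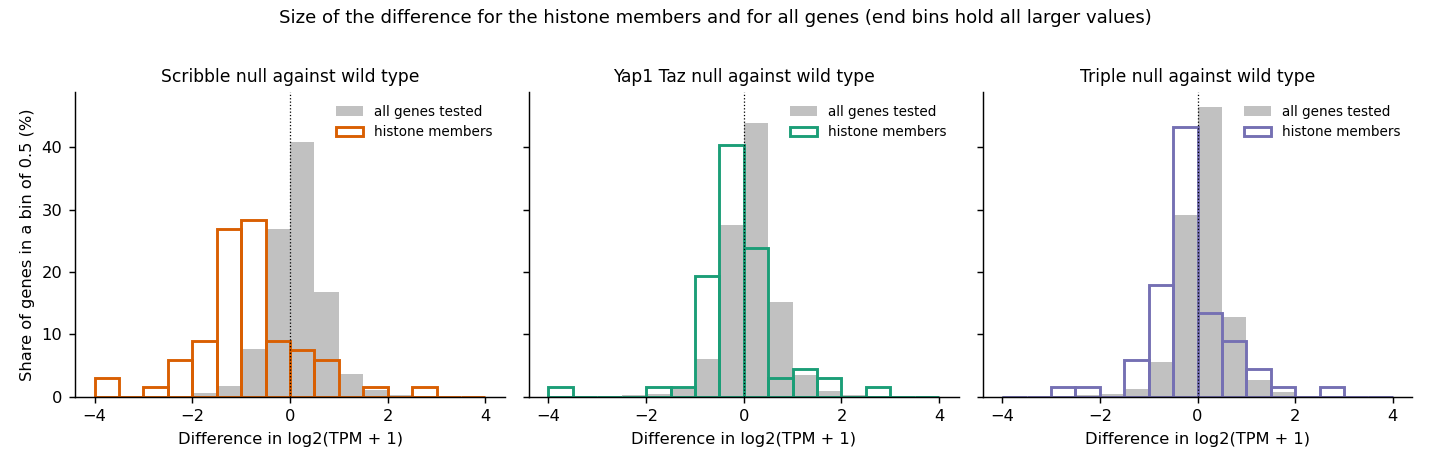
Share of genes in bins of 0.5 of the difference in log2(TPM + 1) from wild type, for the 67 members (outline) and all 16064 genes tested (grey). In Scribble null the members centre near -0.98 and all genes near 0.14, while in the other null genotypes the member medians are -0.20 and -0.18.

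Among the linker histones, Hist1h1b fell in Scribble null. It stood at 95.9 and 83.4 TPM in wild type, 20.3 and 37.2 TPM in Scribble null, 54.2 and 50.9 TPM in Yap1 Taz null and 60.5 and 67.8 TPM in the triple null. All 6 null libraries lay below wild type, and the Scribble null pair was lowest (log2 difference -1.67, SE 0.26, adjusted p = 0.0315). Hist1h1e, the most abundant H1, went from 252 and 230 TPM in wild type to 89.3 and 152 TPM in Scribble null and was at 205 to 236 TPM elsewhere, without passing the test (adjusted p = 0.0789). Its gene overlaps the models of Hist1h2be and Gm11398 on the same strand, so reads may be shared among them. Hist1h1a was listed at 69.9 and 68.2 TPM in wild type, against 7.78 and 23.5 TPM in Scribble null, just short of the threshold at an adjusted p of 0.0516. Hist1h1c, an H1 gene also expressed outside S phase, differed from its sisters. It was at 39.3 and 33.8 TPM in wild type, against 36.0 and 32.2 TPM in Scribble null, which overlap, and lower at 18.6 and 26.6 TPM in Yap1 Taz null, with no call in either comparison. The H1 sum was 507.7 and 455 TPM in wild type, 161 and 267 TPM in Scribble null, 379 and 378 TPM in Yap1 Taz null and 379 and 428 TPM in the triple null, so every null group lay below wild type.

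Among H2A genes Hist1h2ag fell most evenly. Its level was 53.5 and 50.4 TPM in wild type, 16.7 and 17.0 TPM in Scribble null, 27.95 and 38.3 TPM in Yap1 Taz null and 28.5 and 32.8 TPM in the triple null. The Scribble null difference was -1.57 on the log2 scale (SE 0.20, adjusted p = 0.0117), and every null library was below wild type. Hist1h2ak, the most abundant H2A gene, was at 586 and 512 TPM in wild type, against 295 and 273 TPM in Scribble null, with an adjusted p of 0.0518. Hist1h2ab was at 128 and 93.0 TPM in wild type, against 76.1 and 55.2 TPM in Scribble null, and Hist1h2ap at 105 and 79.7 TPM and 29.2 and 52.9 TPM, neither called. Most H2A genes of the clusters overlap an unnamed model on the other strand, and the labels do not say whether strand was kept, so those reads cannot be told apart. Overlap with another annotated gene was found for 24 members in all.

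Hist1h2bl and Hist1h2bc fell among the H2B genes. Hist1h2bl was at 1396 and 1245 TPM in wild type, 592 and 748 TPM in Scribble null, 1384 and 1229 TPM in Yap1 Taz null and 1118 and 1212 TPM in the triple null. The Scribble null pair was lowest, and the triple null pair also lay below wild type. The difference of Scribble null from wild type was -0.99 on the log2 scale (SE 0.14, adjusted p = 0.0208). Hist1h2bc was at 200.4 and 155 TPM in wild type, 60.0 and 67.4 TPM in Scribble null, 99.1 and 118 TPM in Yap1 Taz null and 79.9 and 105 TPM in the triple null. Its Scribble null difference was -1.46 (SE 0.19, adjusted p = 0.0141), and all 6 null libraries lay below wild type. Hist1h2bm and Hist1h2bk, next in level, were lower in both Scribble null libraries, at 328 and 259 TPM against 539 and 445 TPM and at 103 and 170 TPM against 260 and 274 TPM, and were not called. Some H2B genes went the other way without passing the test. Hist1h2bq was at 1.09 and 0.962 TPM in wild type, against 5.67 and 4.33 TPM in Scribble null (adjusted p = 0.0570), and Hist2h2be at 12.8 and 10.3 TPM and 19.8 and 24.7 TPM (adjusted p = 0.130).

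Hist1h3c was the H3 gene called. It was at 58.4 and 53.9 TPM in wild type, 24.1 and 21.2 TPM in Scribble null, 38.0 and 26.4 TPM in Yap1 Taz null and 32.3 and 27.9 TPM in the triple null. All null libraries were below wild type, and the Scribble null difference was -1.27 (SE 0.21, adjusted p = 0.0374). The abundant Hist2h3b, at 97.4 and 90.9 TPM in wild type, against 54.7 and 57.0 TPM in Scribble null, was not called (adjusted p = 0.0779). Hist1h3i (55.2 and 46.8 TPM against 20.7 and 45.8 TPM) and Hist1h3e (65.1 and 36.1 TPM against 34.4 and 31.7 TPM) were not called, and each had 1 group whose libraries lay far apart.

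The H4 class held the most abundant member and some of the steepest differences. Hist1h4d was at 1910 and 1987 TPM in wild type, 466 and 1299 TPM in Scribble null, 2045 and 1809 TPM in Yap1 Taz null and 1965 and 1833 TPM in the triple null. Both Scribble null libraries were lowest, but they lay far from each other, and the gene was not called (log2 difference -1.32, SE 0.38, adjusted p = 0.138). Hist1h4c fell from 81.3 and 60.5 TPM in wild type to 23.2 and 31.6 TPM in Scribble null (log2 difference -1.34, SE 0.25, adjusted p = 0.0467). It stood at 34.3 to 51.0 TPM in the other null libraries, also below wild type. This call was the least stable of the 9, since it was lost whichever library was left out. Others were fragile too, as the calls of Hist1h1b, Hist1h3c and Hist1h2bl held in 1, 2 and 3 of those 8 fits. Hist1h4k was at 42.3 and 23.3 TPM in wild type, against 5.42 and 21.8 TPM in Scribble null and was not called.

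Hist1h4b was called lower in both Scribble null and Yap1 Taz null, but it entered the test only through wild type and the triple null, where it reached 1 TPM. It was listed at 24.2 and 8.11 TPM in wild type, 0 and 0.502 TPM in Scribble null, 0 in both Yap1 Taz null libraries, and 2.69 and 2.20 TPM in the triple null. All null libraries lay below wild type, with an adjusted p of 0.0173 for Scribble null and 0.0113 for Yap1 Taz null. An exact 0 in such a table may be a failed estimate, and the fitted differences of -3.63 and -3.92 depend on the pseudocount of 1. A model on the other strand, 4930558J22Rik, overlaps this gene.

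**Figure D3:**
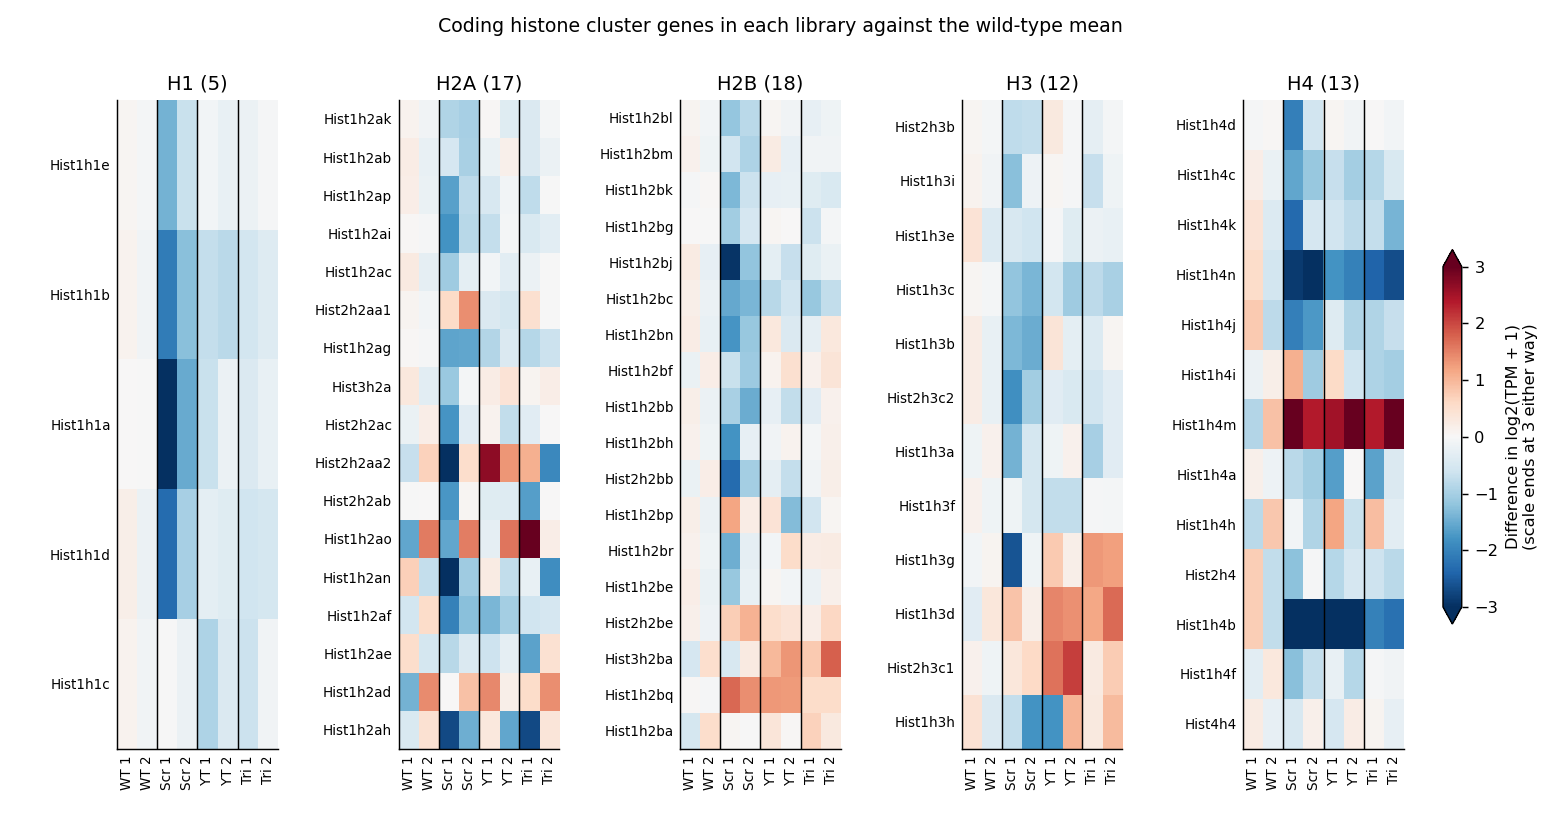
Difference of each coding member in each library from the wild-type mean in log2(TPM + 1), by class and ordered by mean level, with WT for wild type, Scr for Scribble null, YT for Yap1 Taz null and Tri for triple null. The Scribble null columns are blue for most members and deeper in library 1, and Hist1h4m runs red beside the blue Hist1h4n in all null libraries.

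The scatter between the Scribble null libraries was a feature of the members more than of other genes. The median absolute log2 difference between these libraries was 0.774 over the members and 0.312 over all genes tested, whereas in the other groups it was 0.325 to 0.379 over the members. Scribble null 1 was the lower of the pair for 45 of 67 members and the lowest of all 8 libraries for 35. Against the wild-type mean the median member difference was -1.25 in Scribble null 1 and -0.71 in Scribble null 2. Both libraries were thus on the same side of wild type, at different distances.

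The class sums, which were given no test, were lower in Scribble null as well. H2A summed to 1158 and 1011 TPM in wild type, against 535 and 658 TPM in Scribble null, 1.82-fold lower. H2B summed to 3354 and 2954 TPM in wild type, against 1488 and 1776 TPM in Scribble null, 1.93-fold lower. H3 summed to 434 and 363 TPM and 199 and 237 TPM, 1.83-fold lower. H1 was 2.25-fold lower. H4 summed to 2215 and 2173 TPM in wild type, against 566 and 1398 TPM in Scribble null, 2.23-fold lower, with a log2 ratio of -1.95 without Scribble null 2 and -0.65 without Scribble null 1. The groups did not overlap in any of the 5 classes. The share of H2A, H2B, H3 and H4 together in the member sum was 93.2 to 94.3% in every library. The H4 share of the member sum was 19.1% in Scribble null 1 and was 28.8 to 33.5% in all other libraries.

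**Figure D4:**
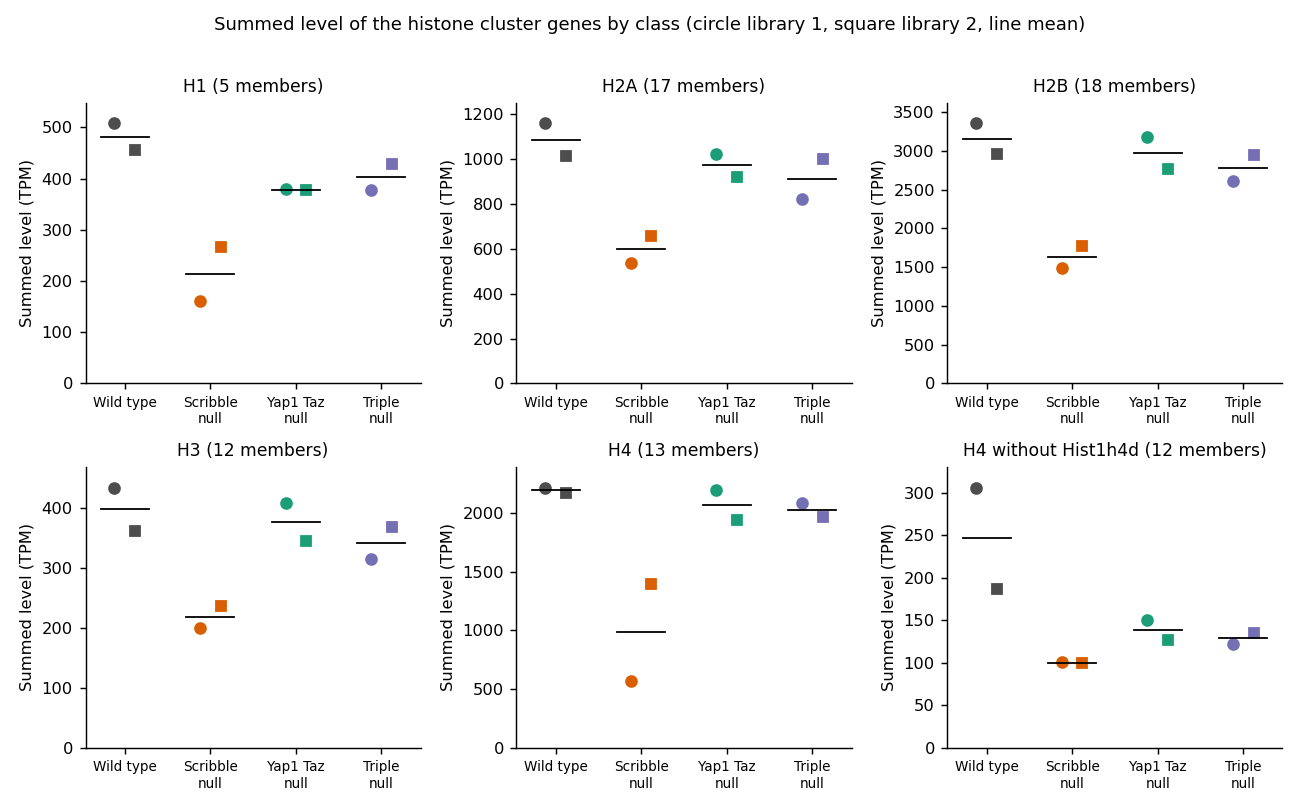
Summed TPM of each histone class in each library, with circles for library 1, squares for library 2 and lines for the mean. Scribble null is below every other group in all 5 classes, and without Hist1h4d the H4 sum is below wild type in all 3 null groups.

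Without Hist1h4d the other 12 H4 genes summed to 306 and 187 TPM in wild type, 100.3 and 99.4 TPM in Scribble null, 149.6 and 126.6 TPM in Yap1 Taz null and 122 and 135 TPM in the triple null. This sum, chosen after the values were seen, was lower than wild type in all null groups, 2.47-fold, 1.78-fold and 1.91-fold, with no overlap. The wild-type libraries differed the most here, wild type 1 being well above wild type 2. With Hist1h4d included the Yap1 Taz null pair overlapped wild type. Without both Hist1h4d and Hist1h2bl the sum of the remaining members was 4381 and 3745 TPM in wild type, against 1901 and 2290 TPM in Scribble null, 1.94-fold lower.

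Coding sequences within a class are so alike that reads may be assigned to either of several copies. The median identity between coding sequences was 96.2% in H2A, 96.6% in H2B, 97.2% in H3 and 93.9% in H4, and 75.3% in H1. Transcripts alike by 95% or more over 80% or more of the shorter one were therefore linked, and all linked transcripts were summed. Such copies are called near-identical here, although 2 copies of a group may be linked only through others. The least alike coding sequences of the H3 group, Hist1h3i and Hist2h3c2, were 93.6% identical. The linking placed 52 members in 6 groups, and the whole table was tested again with such groups summed. In Scribble null against wild type 4 of the 6 groups were called lower, beside 0.633% of the 14848 features of that fit called lower and 1.21% called either way. The sum of 13 Hist1 H2A copies, 1 of them the excluded Hist1h2aj, fell by 1.00 on the log2 scale (SE 0.14, adjusted p = 0.0217). The sum of 13 Hist1 H2B copies fell by 0.95 (SE 0.13, adjusted p = 0.0217), that of 12 H3 copies by 0.87 (SE 0.16, adjusted p = 0.0457) and that of 10 H4 copies by 1.29 (SE 0.22, adjusted p = 0.0386). The H4 group does not hold Hist2h4, Hist4h4 or Hist1h4d, which gave 91.6% of the H4 level and was not called. Its call is therefore not one for the H4 class. Of the 15 members outside these groups, Hist1h1a and Hist1h1b were called.

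In the libraries behind these sums, the 10 H4 copies stood at 291 and 181 TPM in wild type, 96.7 and 90.4 TPM in Scribble null, 145 and 119.5 TPM in Yap1 Taz null and 116 and 129.8 TPM in the triple null. Scribble null was lowest and the other null groups lay between it and wild type, at log2 differences from wild type of -0.80 and -0.90 that were not called (adjusted p = 0.175 and 0.190). The 13 H2B copies stood at 3161 and 2772 TPM, 1397 and 1680 TPM, 3016 and 2635 TPM, and 2449 and 2725 TPM in the same order, and their Yap1 Taz null pair overlapped wild type. The sum of Hist1h1e and Gm11398 was lower by 1.05 in Scribble null without a call (adjusted p = 0.0758).

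Copies can also move against each other, and the H4 genes Hist1h4m and Hist1h4n show it. Over the 402 bases that their annotated transcripts share they differ at 1 position, counted from the first base of both transcripts, as G36A with Hist1h4m first. The stretch around it is shown with that base in capitals, from chr13:21811767-21811795 on the plus strand and chr13:21832147-21832175 on the minus strand of GRCm38.
Hist1h4m: acagttttgtcttcGtcatgtctggtcgt
Hist1h4n: acagttttgtcttcAtcatgtctggtcgt
Hist1h4n was at 66.4 and 30.0 TPM in wild type, 5.22 and 4.56 TPM in Scribble null, 12.2 and 10.1 TPM in Yap1 Taz null and 7.61 and 6.27 TPM in the triple null. It fell in Scribble null (log2 difference -2.96, SE 0.37, adjusted p = 0.0105) and in the triple null (-2.53, adjusted p = 0.0281), and was not called in Yap1 Taz null (adjusted p = 0.0687). Hist1h4m went the other way in every null library, from nearly 0 in library 1 and 2.34 TPM in wild type to 18.8 and 8.48 TPM in Scribble null, 9.53 and 17.6 TPM in Yap1 Taz null and 8.53 and 19.1 TPM in the triple null. It was not called, at adjusted p of 0.0886, 0.108 and 0.146. The sum of both was 66.5 and 32.3 TPM in wild type, 24.0 and 13.04 TPM in Scribble null, 21.8 and 27.7 TPM in Yap1 Taz null and 16.1 and 25.4 TPM in the triple null. The sum was lower in all null libraries than in wild type, by less than Hist1h4n alone. How reads were divided between these copies is not given in the sources used here, and its part in the difference was not tested.

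**Figure D5:**
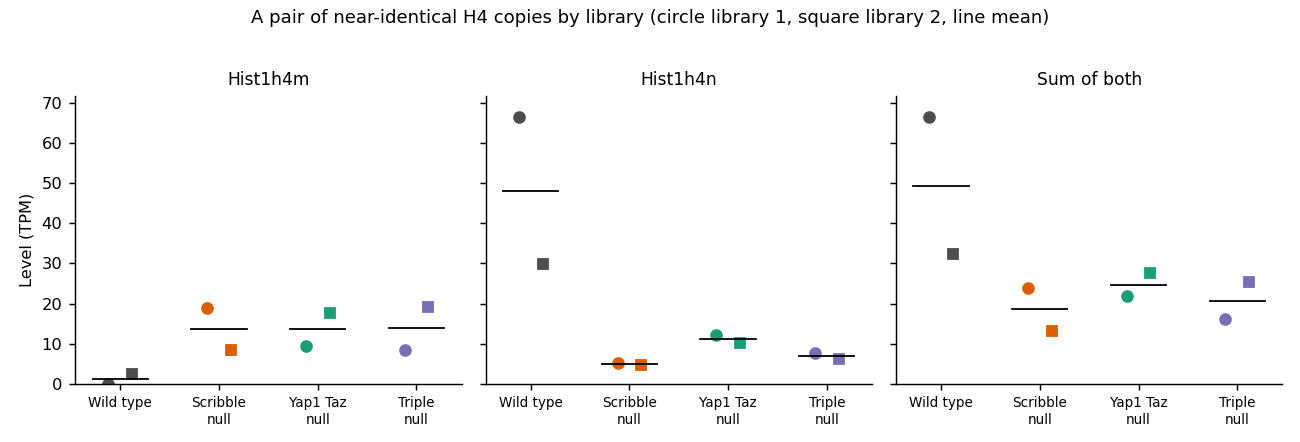
Level in TPM of Hist1h4m, of Hist1h4n and of their sum in each library, with circles for library 1, squares for library 2 and lines for the mean. Hist1h4m is at most 2.34 TPM in wild type and at least 8.48 TPM in the null libraries, Hist1h4n the reverse, and the sum stays below wild type.

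The pseudogene Hist1h2al had the smallest p of any member. It was at 16.04 and 18.5 TPM in wild type, 0.542 and 0 TPM in Scribble null, 29.7 and 13.5 TPM in Yap1 Taz null and 17.8 and 15.6 TPM in the triple null. Both Scribble null libraries were near 0 and all others above 13 TPM, with an adjusted p of 0.00346 against wild type. Hist1h2al reached 1 TPM in no Scribble null library, so only the other groups admitted it to the test, and its call is no independent support. The same holds for its calls in the other comparisons with Scribble null and in the departure from additivity below. Its near-identical copies are Hist2h2aa1, Hist2h2aa2 and Hist2h2ac on chromosome 3, and the sum of the 4 was 71.1 and 86.0 TPM in wild type, 51.6 and 109.5 TPM in Scribble null, 132 and 68.2 TPM in Yap1 Taz null and 95.0 and 68.9 TPM in the triple null. That sum was not called (log2 difference -0.06, SE 0.40, adjusted p = 0.958), so the call for Hist1h2al did not extend to the group. Hist2h2aa1 itself stood higher in Scribble null, at 45.3 and 80.2 TPM against 31.5 and 28.3 TPM, without a call (adjusted p = 0.138). The other pseudogene, Hist3h2bb-ps, ranged from 0.614 to 8.34 TPM, both extremes being Scribble null libraries.

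The libraries labelled Yap1 Taz null had a summed histone level in TPM that overlapped wild type. No rescaling was applied to this sum. The median log2 ratio of genes to their mean over libraries was -0.142 and -0.071 in wild type. It was 0.019 and 0.089 in Yap1 Taz null, so scaling by these ratios moves the groups apart. In Yap1 Taz null against wild type 1 member was called, Hist1h4b, lower, which no Yap1 Taz null library had helped to admit, beside 0.990% of all genes called either way, 0.517% lower and 0.473% higher, and 15 members had an unadjusted p below 0.05. The median member difference was -0.20 and that of all genes 0.14. With median-ratio scaling these medians were -0.35 and 0.003. Both libraries were below both wild-type ones for 22 members, against 14.5% of all genes, and above both for 9, against 32.0%. All 5 H1 genes were below wild type in both libraries, at differences of -0.16 to -0.76. Hist2h3c1, an H3 gene of the Hist2 cluster, had the smallest p among higher members, at 6.63 and 9.44 TPM against 1.71 and 1.26 TPM in wild type (adjusted p = 0.0600). The count of calls was 2 without wild type 2 and 0 without wild type 1 or either Yap1 Taz null library.

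In the triple null 1 member was called against wild type, Hist1h4n, lower, beside 0.579% of all genes called either way and 0.355% lower, and 9 members had an unadjusted p below 0.05. The median member difference was -0.18 and that of all genes 0.12. Both triple null libraries lay below both wild-type ones for 20 members, against 14.2% of all genes, and above both for 9, against 30.9%. The summed level was 1.13-fold lower than in wild type, without overlap, while Scribble null was 2.01-fold lower. The count of calls was 0 without any single library other than wild type 2. Hist1h2bc at 79.9 and 105 TPM was below wild type (log2 difference -0.94, adjusted p = 0.113). Hist1h3d at 7.81 and 11.8 TPM was above its 2.10 and 3.93 TPM in wild type (adjusted p = 0.204), and Hist3h2ba at 4.48 and 9.85 TPM above 1.22 and 3.49 TPM (adjusted p = 0.402). Low members such as these moved both ways in the null groups.

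Compared directly, the triple null stood above Scribble null. The sum was 0.83 higher on the log2 scale, 59 of 67 members had a positive difference and both triple null libraries were above both Scribble null ones for 43 members, against 19.0% of all genes, and below both for 4, against 21.1%. Only Hist1h2al was called higher, which no Scribble null library had helped to admit. Of all genes 0.212% were called either way, 0.112% higher and 0.0996% lower, and 34 members had an unadjusted p below 0.05 in limma. The count was 12 once Scribble null 2 was left out, and 0 once either triple null library was. Scribble null against Yap1 Taz null gave 2 members lower, Hist1h2al and Hist1h2bl (log2 difference of Hist1h2bl -0.97, SE 0.14, adjusted p = 0.0429), beside 0.286% of all genes called either way, 0.174% lower and 0.112% higher, and this count was 10 without Scribble null 2 and 1 without any other single library. The triple null against Yap1 Taz null gave no call in limma, beside 0.181% of all genes called either way, 0.0685% higher and 0.112% lower. There 5 members had an unadjusted p below 0.05, 9 lay above without overlap against 18.7% of all genes, and 13 lay below against 21.3%, and the summed ratio was -0.07 on the log2 scale. The 0 calls held under every other alternative run.

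If the changes of the single-pathway nulls simply added on the log2 scale, the triple null would stand at their sum. Its departure from that was positive for 57 of 67 members, with a median of 0.87 against -0.15 for all genes tested. It was called higher for 2 members, Hist1h4b and Hist1h2al, beside 0.374% of all genes called higher and 0.635% called either way, and 32 members had an unadjusted p below 0.05. For Hist1h2al the departure was 3.62 (SE 0.56, adjusted p = 0.0372), with Scribble null alone near 0. In the sum with its near-identical copies it was -0.17 (adjusted p = 0.913). For Hist1h4b the fitted departure of 5.41 is no evidence of one, because both other null groups were at or near 0 and no level can lie as low as the sum of their changes. The count was 0 without Scribble null 1, Yap1 Taz null 2 or either triple null library, 1 without wild type 1, wild type 2 or Yap1 Taz null 1, and 11 without Scribble null 2. The comparisons share libraries, so these values are not independent of those above.

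By position, in Scribble null against wild type the median difference was -1.20 for the 23 members of the first Hist1 stretch, -0.98 for the 29 of the second and -0.79 for the 10 of Hist2, with 4, 4 and 0 called lower. It was -0.10 for the 3 members of Hist3 and -0.17 for Hist4h4, with 0 called in limma. The median was -0.78 for the 43 members with an annotated stem-loop and -1.29 for the 24 without. Of these 24, 10 are annotated as the coding part alone and cannot show it. The rest include both pseudogenes and some long models. The split thus follows the annotation in part. Of the H2B genes, the 7 with the octamer in the promoter window had a median of -0.78 and the 9 without one -0.88. There are 11 pairs of an H2A and an H2B gene that start 176 to 302 bases apart and point away from each other. In 7 of the 11 both were lower in Scribble null, and in 4 they had opposite signs. Hist1h2ag and Hist1h2bj, 270 bases apart, were both lower, at -1.57 and -2.06. Hist1h2an and Hist1h2bp were not, at -2.23 and 0.70, where Hist1h2an is a low H2A gene of 0 to 16.4 TPM. Partners could differ in level too, as Hist1h2bl averaged 1116 TPM and its partner Hist1h2ai 66.5 TPM.

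The genes that make and handle histone mRNA differed by less at the median. Of 16 genes for 3′ end processing and histone transcription 0 were called in any comparison with wild type by limma, 13 had a negative difference in Scribble null, and the median was -0.11. Slbp, which binds the stem-loop, was at 94.6 and 98.8 TPM in wild type, against 59.0 and 80.4 TPM in Scribble null (adjusted p = 0.225). It was at 117 and 93.6 TPM in Yap1 Taz null and 78.5 and 82.7 TPM in the triple null. Hinfp, an activator of H4 genes, was higher in Yap1 Taz null, at 43.4 and 30.4 TPM against 18.2 and 16.2 TPM, without a call (adjusted p = 0.165). Of 22 histone chaperones and nuclear carriers none was called, and Chaf1a, a subunit of the assembly factor CAF-1, was at 20.95 and 29.4 TPM in wild type, against 12.3 and 12.95 TPM in Scribble null (adjusted p = 0.0954).

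Histone variants and linker genes outside the clusters form another list, most of them made outside S phase too. Of 11 none was called by limma, 10 had a negative difference in Scribble null, and the median was -0.31. H2afz was at 1264 and 1678 TPM in wild type, against 632 and 999 TPM in Scribble null (log2 difference -0.87, adjusted p = 0.105). H2afx was at 199 and 159.5 TPM and 110.6 and 120.5 TPM (adjusted p = 0.0904). H3f3b, an H3.3 gene, was at 247 and 250.2 TPM and 230 and 312 TPM, which overlap.

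Cell cycle genes mostly had negative differences in Scribble null, as the histone genes did. They mostly did so in the triple null too, where the histone sum was nearer wild type. Of 38 genes of DNA replication and S phase 36 had a negative difference in Scribble null, 5 were called lower (Gins1, Gins2, Mcm3, Mcm5 and Rrm2), and the median was -0.58. Their summed level was 2942 to 3068 TPM in wild type, 1940 to 2004 TPM in Scribble null, 2764 to 2901 TPM in Yap1 Taz null and 2454 to 2558 TPM in the triple null. Rrm2, a subunit of ribonucleotide reductase, went from 52.9 and 57.3 TPM to 20.98 and 28.5 TPM (log2 difference -1.14, SE 0.19, adjusted p = 0.0384). The S-phase sum was close between the Scribble null libraries, where the histone sum was not. Of 20 genes of mitosis 18 were negative in Scribble null and 2 were called, Cdca8 and Ttk, with a median of -0.69. In the triple null 18 of these 20 were negative (median -0.38), as were 32 of the 38 S-phase genes (median -0.23) and 47 of the 67 members. The mitosis list summed to 1100 to 1122 TPM in wild type and 737 to 993 TPM in Scribble null. It summed to 1035 to 1080 TPM in Yap1 Taz null and 801 to 943 TPM in the triple null. The part of cycle genes in the histone result was not tested.

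Markers of other cells also differed between the groups. The macrophage and dendritic cell list summed to 2876 to 3247 TPM in wild type and 542 to 591 TPM in Scribble null, where H2-Aa, H2-Ab1 and Cd74 of its 9 genes fell and Csf1r, Adgre1 and Itgax stayed below 1 TPM in all libraries. Others of that list were not called, with Cd68 at 20.2 and 21.7 TPM in wild type, against 46.1 and 32.95 TPM in Scribble null, Siglech at 0.460 and 0.578 TPM against 1.74 and 1.96 TPM, and Lyz2 overlapping. The megakaryocyte list of 8 summed to 1189 to 1329 TPM and 489 to 500 TPM, with Pf4 called lower and Itgb3 called higher. Pf4 made up most of that difference, at 816 and 958 TPM in wild type, against 94.9 and 98.9 TPM in Scribble null. Without a call, Itga2b overlapped between these groups, Vwf was higher in both Scribble null libraries, and Gp9 and Gp1ba were lower. The red cell list of 11 summed to 527 to 536 TPM and 389 to 394 TPM, with no call and with Hba-a1 among the genes below 1 TPM in all libraries. Most of that difference was Car2, at 450 and 449.7 TPM in wild type, against 333 and 314 TPM in Scribble null, while Hbb-bt overlapped. The progenitor list of 9 was higher, at 199.5 to 223 TPM and 361 to 529 TPM, with Prtn3 called higher and Ctsg, Cebpe and Fcgr3 below 1 TPM in all. Prtn3 carried most of that rise, at 118 and 140.5 TPM in wild type, against 425 and 262 TPM in Scribble null. Mpo and Elane were at 2.56 TPM or less in every library. The stem cell list of 12 was at 1977 to 1992 TPM in wild type and 2051 to 2309 TPM in Scribble null, with no call in that comparison. Its genes moved both ways, 3 of the 12 having a negative difference. Ly6a was at 359 and 417 TPM in wild type, against 148 and 231 TPM in Scribble null, and at 176 to 255 TPM in the other null libraries. Kit was at 267.5 and 280.9 TPM in wild type, against 384 and 401 TPM in Scribble null. In Yap1 Taz null and triple null, where the histone sum was near wild type, the macrophage list was 708.5 to 781 TPM and 1022 to 1061 TPM and the megakaryocyte list 654 to 655 TPM and 524 to 560 TPM. Pf4 stood at 222 and 211 TPM in Yap1 Taz null and at 135 and 222 TPM in the triple null. The part of these cell types in the histone result was not tested.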

How the data were processed

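RNA from sorted stem cells of 4 genotypes, 2 libraries each, was amplified (Ovation RNA-Seq) before Nextera XT library construction, as the labels' protocols state. Each deposited table gives TPM by symbol, named so per the file headers, with a total of 1000000. TopHat and mm10 are named in the submitters' processing notes, while for the quantifier, annotation and treatment of reads mapping to several copies nothing is stated (not given in the sources used). A deposited series-wide table of unnamed unit (a signal with column totals of 818363 to 888261) served as an alternative, with 27458 of its 28987 identifiers matched to a symbol (94.7%). No value column lacked a sample (0).

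Genes at 1 TPM or more in at least 2 libraries (16064) entered limma 3.58.1 (R 4.3.3) on the scale log2(TPM + 1). All 8 libraries shared 1 estimate of the spread (4 residual and 4.002 prior degrees of freedom), with Benjamini-Hochberg adjustment over all genes of a comparison and a threshold of 0.05. TPM keeps no depth, so no counting interval could be given. Sums over members were not tested. Copies at 95% identity over 80% of the shorter transcript (BLAST 2.17.0) were linked. Groups connected by such links were summed, the largest of the whole table holding 383 symbols, and the table was tested again. Coordinates and stem-loops came from GENCODE M21 (GRCm38) and promoters from RefSeq. Tables were handled with Python 3.11.15, pandas 2.3.3, numpy 2.4.6 and Biopython 1.88, and plotted with matplotlib 3.10.9. The fitting code was tested on simulated data.

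Members and gene lists were chosen with earlier results of these data known. Values in every library were given for called members, the 3 most abundant of each class, the 3 with the smallest p per direction against wild type, and the symbols next to the level rule, and fewer for the other lists. Alternatives were a pseudocount of 0.1, no filter, median-ratio and quantile scaling, the series-wide table, a fit on the compared groups alone, a replicate block, summed copies and each library left out. The sums without Hist1h4d and Hist1h2bl, of Hist1h4m with Hist1h4n, and of Hist1h2al with its copies were chosen after seeing the data.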

Additional observations from a re-analysis of the deposited data

Results flagged for a closer look

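The triple null departed from the sum of the Scribble null and Yap1 Taz null changes for 2 members, by the test of that difference in limma over all genes. For the pseudogene Hist1h2al the departure was 3.62 on the log2 scale (SE 0.56, adjusted p = 0.0372), with levels near 0 in Scribble null alone. No Scribble null library had helped to admit Hist1h2al to the test. In the sum of Hist1h2al with its near-identical copies it was -0.17 (adjusted p = 0.913), and Hist1h2al kept the call in 1 of 8 fits that each left out a library. For the H4 gene Hist1h4b the fitted value was 5.41, but levels were at or near 0 in both the Scribble null and the Yap1 Taz null libraries. No level can lie as low as the sum of those changes, so this value does not bear on additivity.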

How the results depend on the processing

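No called member changed sign where copies were kept apart. Summed with its copies, Hist1h2al had a departure of -0.17 in place of 3.62. The number of members called in Scribble null against wild type, 9, was 4 with no filter, 15 with median-ratio scaling, 1 with only the compared groups fitted, and 0 to 18 with a library left out. In Yap1 Taz null and in the triple null against wild type the 1 call became 0 with no filter, with only the compared groups and with copies summed, and 0 to 2 and 0 to 1 with a library left out. Scribble null against Yap1 Taz null, 2, gave 1 with no filter, median-ratio scaling or the series-wide table, 0 with only the compared groups or copies summed, and 1 to 10 with a library left out. Triple null against Scribble null, 1, gave 0 with no filter, the series-wide table, only the compared groups or copies summed, and 0 to 12 with a library left out. Triple null against Yap1 Taz null gave 0 throughout. The departure, 2, gave 1 with the pseudocount of 0.1 or the series-wide table, 0 with no filter or copies summed, and 0 to 11 with a library left out. The causes were not tested. The sample titles number the libraries of each genotype as Exp#1 and Exp#2. Over all genes, same-numbered libraries did not deviate together (r of -0.053 to 0.026). With 2 libraries per genotype this cannot decide whether same-numbered libraries came from a shared experiment. The replicate block gave 8 calls in Scribble null against wild type and 1 against Yap1 Taz null. The summed level against wild type ranged from -1.31 to -0.76 on the log2 scale in Scribble null, from -0.21 to -0.02 in Yap1 Taz null and from -0.25 to -0.11 in the triple null with a library left out, and the last was -0.32 with median-ratio scaling. It ranged from -1.20 to -0.65 for Scribble null against Yap1 Taz null, from 0.58 to 1.13 for triple null against Scribble null, and from -0.16 to 0.029 for triple null against Yap1 Taz null. With median-ratio scaling the median member difference of Yap1 Taz null from wild type was -0.35, against -0.20 in the main fit. Depth is unknown, which limits what low members can show.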
